A study of Mus musculus with 18 samples.

Results

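The genes described here are the 31 genes that encode the enzymes of purine and pyrimidine synthesis, followed in 18 RNASeq libraries of mouse splenic B cells. They were chosen by name, as the enzymes of the de novo purine and pyrimidine routes together with some of those that interconvert, reduce, salvage and phosphorylate nucleotides. All 31 were among the 28096 genes counted in each library, and all 31 passed the filter on low counts that left 14161 genes for testing. The libraries came from C57BL/6 N mice at least 8 weeks old that were WT or Ubqln1-/-, and the cells of each genotype were left resting, treated for 4 hr with anti-IgM F(ab)2 at 10 μg/mL, or treated as long with 20 μg/mL LPS of K12 E. coli, with 3 libraries in each of the 6 groups. Anti-IgM F(ab)2 crosslinks the B-cell receptor, and LPS is a ligand of the receptor TLR4. The Ubqln1-/- mice came from ES cells in which Cre had removed exon 2 of Ubqln1, so every cell of the mouse lacks it. Ubqln1 encodes a shuttle protein that binds ubiquitin and the proteasome. Each library is RNA pooled from 3 culture wells, and the labels call the 3 libraries of a group biological replicates without naming the mouse behind each.

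De novo purine synthesis builds the purine ring step by step on phosphoribosyl pyrophosphate (PRPP) until inosine monophosphate (IMP) is made, which is then turned into AMP or GMP. Pyrimidine synthesis closes its ring first and adds PRPP afterwards, giving UMP and from it CTP. Ribonucleotide reductase makes the deoxynucleotides, thymidylate synthase makes dTMP, and salvage enzymes return free bases and nucleosides to the nucleotide pool. Lymphocytes are known to depend heavily on these routes once they begin to grow.

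The libraries held between 15368941 and 41072854 counts, and the targeted gene Ubqln1 was at 62.3 to 92.0 RPKM in WT and 24.8 to 34.8 RPKM in Ubqln1-/- libraries, where the counts cover all exons and not the deleted one alone. RPKM is the count scaled by gene width and by library size, here with library sizes adjusted by the TMM method, and it is the scale of every level given below. All 7 B cell markers were above 1 RPKM in every library, but their summed level was 4171 to 4852 RPKM in resting cells, 1380 to 1742 RPKM with anti-IgM and 3135 to 3780 RPKM with LPS. The 7 T cell markers summed to at most 0.771 RPKM and the 4 NK cell markers to at most 2.21 RPKM, while the 3 plasma cell markers summed to 63.3 to 206 RPKM in WT and 41.1 to 88.4 RPKM in Ubqln1-/- libraries and the 7 myeloid markers from 13.6 to 24.4 RPKM. The part of these markers in the changes below was not tested. In such bulk RNA, a change in the kinds of cells and a change in the RNA of each cell cannot be told apart.

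Most of the nucleotide synthesis genes were higher after either stimulation. With anti-IgM, 22 of 31 (71.0%) rose in WT cells, where 32.4% of all tested genes did, and 6 of 31 (19.4%) fell, against 32.2% of all tested genes. The median of the 31 log2 fold changes was 0.74, and that of all tested genes was −0.01. A gene is said to rise or fall here when its adjusted p in edgeR's quasi-likelihood test, corrected over all 14161 genes, was under 0.05. In Ubqln1-/- cells 21 members (67.7%) rose with anti-IgM and 6 fell, beside 32.9% and 32.4% of all tested genes, and the median was 0.74.

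With LPS, 22 members rose and 5 (16.1%) fell in WT cells, where 31.2% and 30.1% of all tested genes did, with a median of 0.70. In Ubqln1-/- cells 22 rose and 5 fell as well, beside 30.6% and 30.2% of all tested genes, and the median was 0.65. The anti-IgM and LPS comparisons share their resting libraries, so they are not independent of each other. In all 4 comparisons with resting cells 21 members rose, and for 20 of these every stimulated sample lay above every resting sample of its genotype each time. The exception was Dut, whose samples overlapped with LPS in Ubqln1-/- cells. Another 4 members, Ctps2, Rrm2b, Dck and Tk2, fell in all 4 comparisons, with every stimulated sample below every resting one. The share of all tested genes that did the same in all 4 comparisons was not computed for either direction. These joint counts therefore have no background beside them.

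**Figure D1:**
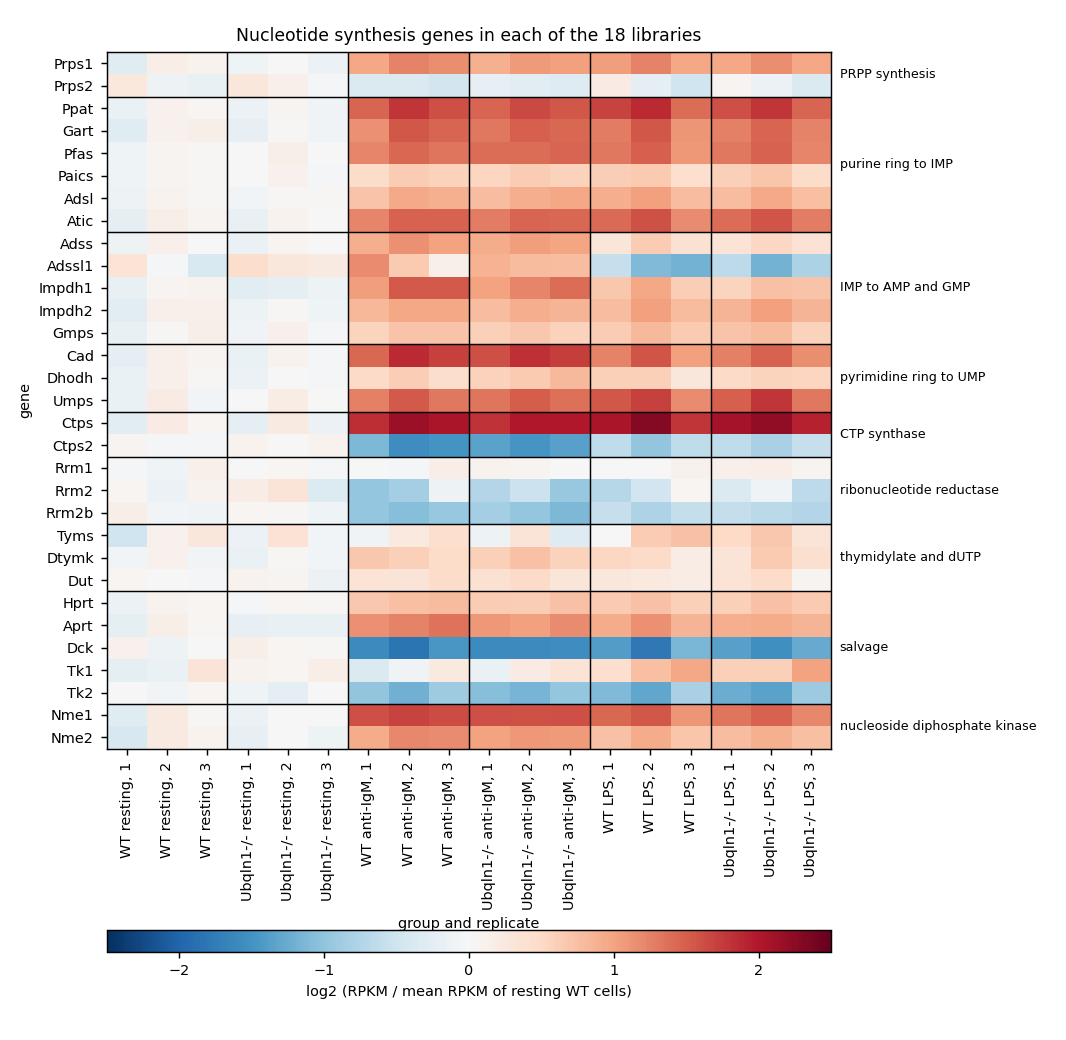
Colour gives the log2 ratio of the RPKM of each of the 31 genes (rows, by role) in each of the 18 libraries (columns, by group and replicate) to the mean RPKM of resting WT cells. The 4 genes that fell everywhere (Ctps2, Rrm2b, Dck and Tk2) are blue in all 12 stimulated libraries, and the purine ring genes are red in the same 12.

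Short stretches of promoter are shown for the 6 members with a CACGTG E-box, letters known as the binding motif of MYC and related factors. A part of these factors in the changes was not tested. RefSeq gave windows from 250 bases before to 50 bases after a start for 28 of the 31, none of them for Pfas, Dhodh or Rrm2b. The E-box was found in 6 of these 28 (21.4%), against 11.8% of 10067 tested genes with a window and 7.15% of all 32851 windows. In the lines below the capitals mark the E-box, the strand is that of the gene and the build is GRCm38.
Atic, chr1:71557122-71557155, plus strand: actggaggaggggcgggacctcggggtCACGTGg
Dtymk, chr1:93802050-93802109, minus strand: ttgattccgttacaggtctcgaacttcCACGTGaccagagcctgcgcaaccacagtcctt
Tyms, chr5:30073654-30073713, minus strand: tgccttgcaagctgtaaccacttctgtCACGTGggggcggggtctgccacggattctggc
Paics, chr5:76951072-76951131, plus strand: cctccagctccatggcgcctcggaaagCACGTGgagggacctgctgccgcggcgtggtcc
Impdh2, chr9:108560299-108560358, plus strand: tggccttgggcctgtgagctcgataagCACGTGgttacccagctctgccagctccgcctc
Nme1, chr11:93968273-93968317, minus strand: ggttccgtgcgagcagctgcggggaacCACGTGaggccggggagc
The E-box began 7 bases before the start in Atic, 18 in Nme1, 61 in Tyms, 110 in Impdh2, 148 in Dtymk and 203 in Paics. The stretch of Dtymk reaches into the gene as RefSeq maps it. Of these 6 genes, 5 rose in all 4 comparisons with resting cells and Tyms was not called in any, beside 21 of all 31 members that rose in all 4. Ctps, with the largest rise of the 31, had no E-box in the window, nor did Cad or Ppat. A link of the E-box to the rise was not tested. The E-box of Paics lies inside Ppat as RefSeq maps it, past the 50 bases after the start that the window of Ppat covers.

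Other motifs were counted in the same windows on both strands, with overlapping matches merged. GGGCGG, an SP1 motif, was in 23 of 28 members (82.1%) and 67.3% of tested genes, and CCGGAAG, an ETS motif, in 6 members (21.4%) and 20.4%. The E2F motif TTTCCCGC was in Ppat and Prps2 (7.14% and 2.39%), TTTGGCGC was in 0 members and 1.11% of tested genes, and GCATGCGC, an NRF1 motif, was in Ctps and Ppat (7.14% and 6.01%). A match is a description of letters and not of binding.

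The 2 CTP synthases, which turn UTP into CTP, moved in opposite directions. Ctps (Entrez 51797, chr4:120539868-120570276 of GRCm38) was at 10.3, 14.5 and 13.0 RPKM in the 3 resting WT libraries, 45.4, 55.3 and 51.8 RPKM with anti-IgM and 52.1, 61.4 and 43.2 RPKM with LPS. In Ubqln1-/- cells its levels were 10.7, 14.7 and 11.4 RPKM at rest, 44.1, 50.7 and 50.6 RPKM with anti-IgM and 53.1, 58.6 and 47.7 RPKM with LPS. Every stimulated library lay above every resting library, and the anti-IgM and LPS libraries overlapped. Ctps was 4.02-fold higher with anti-IgM in WT cells (log2 fold change 2.01 ± 0.15 SE, edgeR adjusted p = 7.52e-09) and 4.13-fold higher with LPS, the largest change of the 31 genes in each. In Ubqln1-/- cells it was 3.95-fold and 4.33-fold higher.

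Ctps was also the only one of the 31 to pass the thresholds used by the study, a log2 fold change over 2 with an adjusted p under 0.001. It passed with anti-IgM in WT cells, where 1.72% of all tested genes passed upward, and not in Ubqln1-/- cells, where 1.79% did and 0 members passed. With LPS it passed in WT cells (1.36% of all tested genes) and in Ubqln1-/- cells (1.22%). Its log2 fold change sat so near 2 that leaving out 1 library at a time moved it across that value in 3 of the 4 comparisons, between 1.88 and 2.13 for anti-IgM in WT, 1.90 and 2.14 for anti-IgM in Ubqln1-/- and 1.91 and 2.17 for LPS in WT cells. The 250 bases before its start are shown because it had the largest rise of the 31.
Ctps, chr4:120570277-120570526 of GRCm38, minus strand: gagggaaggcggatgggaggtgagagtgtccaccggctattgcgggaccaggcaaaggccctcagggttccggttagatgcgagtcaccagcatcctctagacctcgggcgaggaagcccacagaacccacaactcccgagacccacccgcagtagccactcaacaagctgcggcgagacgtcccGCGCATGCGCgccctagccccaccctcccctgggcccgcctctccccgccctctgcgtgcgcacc
The capitals mark GCGCATGCGC, which holds the letters GCATGCGC of the NRF1 motif on both strands and begins 65 bases before the start.

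Ctps2 (chrX:162901268-163034541) was at 19.8, 18.2 and 18.4 RPKM in resting WT cells, at 8.62, 6.38 and 6.67 RPKM with anti-IgM and at 12.1, 9.53 and 12.1 RPKM with LPS. Without Ubqln1, Ctps2 was at 19.9, 18.8 and 19.9 RPKM at rest, 7.42, 6.78 and 7.39 RPKM with anti-IgM and 12.1, 10.7 and 12.6 RPKM with LPS. The 3 conditions did not overlap in either genotype, with resting cells highest and anti-IgM lowest. In WT cells Ctps2 was 2.60-fold lower with anti-IgM (log2 fold change −1.38 ± 0.11 SE, edgeR adjusted p = 1.32e-08) and 1.67-fold lower with LPS (−0.74 ± 0.11 SE, edgeR adjusted p = 1.34e-05). Ctps went from 40.0% ± 5.19 (SD, n = 3) of the summed RPKM of the pair in resting WT cells to 87.4% ± 2.98 with anti-IgM and 81.9% ± 4.29 with LPS, and from 38.4% ± 4.77 to 87.0% ± 1.33 and 81.7% ± 2.74 in Ubqln1-/- cells. The samples did not overlap, and the exact permutation test gave 0.1, the smallest p that 3 against 3 samples allow.

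**Figure D2:**
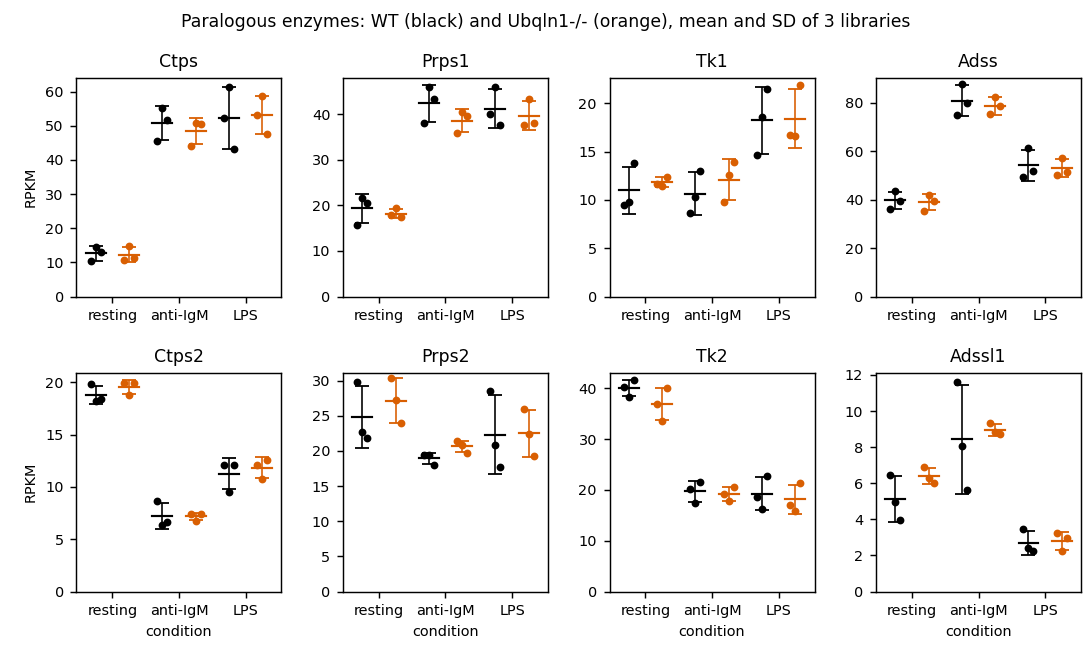
RPKM of 4 pairs of paralogous enzymes in each condition, with a point for each library, WT in black and Ubqln1-/- in orange, and the mean and SD of 3 libraries as bars. Ctps, Prps1 and Adss in the top row were higher with both stimulations than at rest, and Ctps2 and Tk2 in the bottom row were lower.

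PRPP, the ribose donor of both routes, is made by PRPP synthetase. Prps1 was at 15.8, 21.7 and 20.6 RPKM in resting WT cells, 38.0, 45.9 and 43.3 RPKM with anti-IgM and 40.1, 45.9 and 37.6 RPKM with LPS. Without Ubqln1, Prps1 was at 17.9, 19.3 and 17.4 RPKM at rest, 35.8, 40.4 and 39.6 RPKM with anti-IgM and 37.7, 43.4 and 38.0 RPKM with LPS. All 12 stimulated libraries were above all 6 resting ones, and the levels with anti-IgM and LPS overlapped. The log2 fold change in WT cells was 1.13 ± 0.11 SE with anti-IgM (edgeR adjusted p = 1.41e-07) and 1.09 ± 0.11 SE with LPS (edgeR adjusted p = 3.42e-07). Prps2 fell with anti-IgM, by 0.39 on the log2 scale in WT and by 0.40 in Ubqln1-/- cells, and its values with LPS were −0.15 and −0.27 and did not pass the test. With the replicate number as a block the LPS value in Ubqln1-/- cells passed (edgeR adjusted p = 0.00868), and that in WT cells passed without LPS replicate 1, at −0.36. Both calls of Prps2 were weak: the WT one was lost without resting replicate 1 or without any 1 of the 3 anti-IgM replicates, and the Ubqln1-/- one without resting replicate 1 or 2 or any 1 anti-IgM replicate, at log2 values between −0.24 and −0.41. Of the summed RPKM of the pair, Prps1 held 44.0% ± 8.15 (SD, n = 3) in resting WT cells, 69.1% ± 2.46 with anti-IgM and 65.1% ± 5.78 with LPS, samples that did not overlap with resting ones (exact permutation p = 0.1). Of the 50-base words of Prps1, 9.9% also occur in Prps1l3, so part of its counts could belong to that gene.

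All 6 genes of the purine ring, Ppat, Gart, Pfas, Paics, Adsl and Atic, rose with both stimulations in both genotypes. Their median log2 fold change was 1.36 with anti-IgM and 1.31 with LPS in WT cells, and 1.39 and 1.34 in Ubqln1-/- cells. Ppat encodes the amidotransferase that commits PRPP to purines, and it was at 12.2, 14.6 and 14.0 RPKM in resting WT cells, 37.5, 47.2 and 41.5 RPKM with anti-IgM and 43.8, 49.4 and 35.6 RPKM with LPS. Without Ubqln1, Ppat was at 12.3, 14.2 and 12.8 RPKM at rest, 37.4, 42.7 and 39.8 RPKM with anti-IgM and 41.6, 47.0 and 37.3 RPKM with LPS. No stimulated library came near the range of the resting ones in either genotype. Ppat was 3.09-fold higher with anti-IgM (1.63 ± 0.12 SE, edgeR adjusted p = 7.77e-09) and 3.15-fold higher with LPS in WT cells.

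The other purine ring genes differed in size of change. Gart, a protein with 3 enzyme activities of the route, went from 36.7 ± 6.04 RPKM (SD, n = 3) at rest to 96.7 ± 13.7 RPKM with anti-IgM and 91.9 ± 14.8 RPKM with LPS in WT cells. Pfas, which makes formylglycinamidine ribotide, went from 11.8 ± 0.725 to 29.7 ± 2.23 and 29.1 ± 4.01 RPKM. Atic, which closes the ring, went from 43.7 ± 5.96 to 115 ± 11.2 and 116 ± 16.1 RPKM. These 3 had log2 fold changes between 1.28 and 1.5 in the 4 comparisons. Paics, which joins carbon dioxide and aspartate to the growing ring, went from 42.7 ± 2.66 to 63.0 ± 3.89 and 63.3 ± 5.25 RPKM, a log2 fold change of 0.56 and 0.57. Adsl, which removes fumarate here and again on the way to AMP, rose by 0.85 and 0.90 on that scale. Paics had the smallest change of the 6 although its start lies only 276 bases from that of Ppat on the opposite strand. Exons of the pair overlap, and 5.5% of the 50-base words of Ppat and 9.0% of those of Paics occur in another gene, mostly in each other. For Gart the share is 15.5%, in the antisense gene Gm15964, and the library kit did not mark strand.

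Beyond IMP, the route divides into an AMP and a GMP branch. Impdh1, one of the 2 IMP dehydrogenases that open the GMP branch, was at 25.2, 30.0 and 30.2 RPKM in resting WT cells, 58.8, 82.7 and 82.0 RPKM with anti-IgM and 45.7, 55.6 and 43.8 RPKM with LPS. Without Ubqln1, Impdh1 was at 23.5, 24.0 and 26.2 RPKM at rest, 57.5, 66.5 and 75.1 RPKM with anti-IgM and 42.0, 47.3 and 46.7 RPKM with LPS. All anti-IgM libraries were above all LPS libraries, and those above all resting ones, in both genotypes. Its log2 fold change in WT cells was 1.39 ± 0.13 SE with anti-IgM (edgeR adjusted p = 9.99e-08) and 0.76 ± 0.13 SE with LPS (edgeR adjusted p = 8.17e-05). Impdh2 went from 15.9 ± 2.43 RPKM (SD, n = 3) to 30.2 ± 1.59 with anti-IgM and 29.2 ± 2.90 with LPS, and Gmps, which aminates XMP to GMP, from 14.0 ± 1.51 to 22.1 ± 1.43 and 22.7 ± 1.50 RPKM. Of the 50-base words of Impdh2, 39.3% occur in other genes, most of them in its pseudogene Impdh2-ps, so its counts are uncertain.

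The AMP branch begins with adenylosuccinate synthetase. Its main form Adss went from 39.7 ± 3.62 RPKM (SD, n = 3) in resting WT cells to 80.8 ± 6.37 RPKM with anti-IgM and 54.2 ± 6.35 RPKM with LPS, log2 fold changes of 1.02 and 0.45. The second form, Adssl1 (chr12:112620047-112641355), known from muscle, was at 6.46, 4.96 and 3.95 RPKM in resting WT cells, 11.6, 8.06 and 5.60 RPKM with anti-IgM and 3.44, 2.38 and 2.26 RPKM with LPS. Without Ubqln1, Adssl1 was at 6.90, 6.27 and 6.01 RPKM at rest, 9.31, 8.83 and 8.71 RPKM with anti-IgM and 3.25, 2.27 and 2.94 RPKM with LPS. All LPS libraries were lower than all resting libraries of their genotype, whereas the anti-IgM and resting libraries overlapped in WT cells. Adssl1 was the only member that fell with LPS and rose with anti-IgM, by −0.92 ± 0.24 SE (edgeR adjusted p = 0.00298) and 0.73 ± 0.23 SE (edgeR adjusted p = 0.00901) in WT cells.

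The rise of Adssl1 with anti-IgM was the less firm of the pair. It was 0.58 (edgeR adjusted p = 0.051) without WT resting replicate 3 and 0.44 (edgeR adjusted p = 0.0791) without WT anti-IgM replicate 1. In Ubqln1-/- cells its log2 fold change with anti-IgM was 0.49 (edgeR adjusted p = 0.0621), which did not pass. It passed with the replicate number as a block (edgeR adjusted p = 0.00525) and with only the groups compared (edgeR adjusted p = 0.000654). It passed narrowly in limma with voom (adjusted p = 0.0426) and without the filter on low counts (edgeR adjusted p = 0.0498). The fall with LPS in Ubqln1-/- cells was −1.20 ± 0.24 SE (edgeR adjusted p = 0.000417).

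All 3 genes of the pyrimidine ring rose in all 4 comparisons. Cad, which encodes a single protein with the first 3 activities of the route, was at 20.8, 26.9 and 25.9 RPKM in resting WT cells, 66.4, 89.7 and 80.6 RPKM with anti-IgM and 58.1, 72.8 and 49.7 RPKM with LPS. Without Ubqln1, Cad was at 21.9, 26.0 and 24.1 RPKM at rest, 75.3, 87.5 and 80.8 RPKM with anti-IgM and 59.0, 68.5 and 54.5 RPKM with LPS. Every stimulated library was above every resting one, and anti-IgM and LPS libraries overlapped in WT but not in Ubqln1-/- cells. Cad was 3.22-fold higher with anti-IgM (1.69 ± 0.14 SE, edgeR adjusted p = 3.13e-08) and 2.46-fold higher with LPS in WT cells. Umps, whose protein makes UMP from orotate, went from 11.7 ± 1.60 RPKM (SD, n = 3) to 30.5 ± 3.07 and 33.2 ± 6.10 RPKM. Dhodh, the mitochondrial step between them, rose less, from 9.67 ± 1.00 to 13.8 ± 0.850 and 13.6 ± 1.61 RPKM.

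None of the 3 ribonucleotide reductase genes rose. Rrm1, the large subunit, was at 22.1 ± 1.89 RPKM (SD, n = 3) at rest, 22.7 ± 1.76 with anti-IgM and 22.6 ± 0.985 with LPS in WT cells, and its 4 log2 fold changes of 0.03 to 0.12 did not pass the test. Rrm2, the small subunit of dividing cells, was at 9.61 ± 0.777, 6.35 ± 2.13 and 7.56 ± 2.13 RPKM. It fell with anti-IgM by 0.60 on the log2 scale in WT (edgeR adjusted p = 0.0312) and by 0.81 in Ubqln1-/- cells, and its LPS values of −0.35 and −0.44 did not pass the test. In WT cells the call for Rrm2 was lost without resting replicate 1 or 3 or anti-IgM replicate 1 or 2, at −0.58, −0.56, −0.44 and −0.48. With LPS it was gained without WT LPS replicate 3 (−0.59) or Ubqln1-/- resting replicate 3 (−0.61).

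Rrm2b, the small subunit used outside S phase, was at 8.09, 7.03 and 6.94 RPKM in resting WT cells, 3.74, 3.52 and 3.79 RPKM with anti-IgM and 4.92, 4.32 and 4.84 RPKM with LPS. Without Ubqln1, Rrm2b was at 7.63, 7.54 and 6.79 RPKM at rest, 4.08, 3.78 and 3.36 RPKM with anti-IgM and 4.85, 4.61 and 4.40 RPKM with LPS. Resting, LPS and anti-IgM libraries stood in that order without overlap in both genotypes. Rrm2b was 1.99-fold lower with anti-IgM in WT cells (−0.996 ± 0.09 SE, edgeR adjusted p = 4.01e-08), and its log2 fold change with LPS was −0.65 ± 0.08 SE. Of its 50-base words 10.7% occur in other genes, chiefly the antisense gene Gm49085.

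Thymidylate synthase, Tyms, was low throughout, between 0.604 and 1.41 RPKM, and was not called in any comparison with resting cells. With the replicate number as a block it rose with LPS, by 0.47 in WT (edgeR adjusted p = 0.0254) and 0.44 in Ubqln1-/- cells (edgeR adjusted p = 0.0406), and it also passed in WT cells without LPS replicate 1, at 0.67. Dtymk, the kinase that makes dTDP from dTMP, was at 22.5, 25.4 and 22.4 RPKM in resting WT cells, 37.5, 35.6 and 32.2 RPKM with anti-IgM and 33.7, 32.7 and 26.7 RPKM with LPS. Without Ubqln1, Dtymk was at 20.9, 23.8 and 22.2 RPKM at rest, 35.4, 39.2 and 34.8 RPKM with anti-IgM and 29.2, 37.1 and 31.0 RPKM with LPS. The stimulated libraries were all above the resting ones, with WT LPS replicate 3 the nearest to them. The log2 fold change of Dtymk in WT cells was 0.58 ± 0.10 SE with anti-IgM (edgeR adjusted p = 0.000101) and 0.40 ± 0.10 SE with LPS (edgeR adjusted p = 0.00266). Dut, which clears dUTP and supplies dUMP, went from 10.9 ± 0.330 RPKM (SD, n = 3) to 14.1 ± 0.776 and 12.8 ± 0.406 RPKM in WT cells. Its rise with LPS, 0.24 on the log2 scale, was lost without WT resting replicate 2 or 3 or WT LPS replicate 1 or 2, at 0.22 to 0.24, and the rise of 0.30 in Ubqln1-/- cells was lost without LPS replicate 2, at 0.21.

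Genes of S to M phase are given as context for Tyms, Rrm2 and Tk1. Of 10 such genes, 0 rose and 1 fell with anti-IgM in both genotypes, where 32.4% of all tested genes rose and 32.2% fell in WT cells and 32.9% and 32.4% in Ubqln1-/- cells. With LPS 1 rose and 1 fell in WT cells, and 0 rose and 1 fell in Ubqln1-/- cells, beside 31.2% and 30.1%, and 30.6% and 30.2%, of all tested genes. The gene that fell each time was Aurkb, a mitotic kinase, by 1.08 on the log2 scale with anti-IgM in WT cells, and their summed level ran from 48.8 to 84.6 RPKM over the 18 libraries.

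Of the 5 members with a salvage role, 2 rose and 2 fell with anti-IgM and 3 rose and 2 fell with LPS in both genotypes. Over these 4 comparisons the share of all tested genes that rose ran from 30.6% to 32.9%. The share that fell ran from 30.1% to 32.4%. With so few members, the counts are not set apart from these shares. Other salvage enzymes, Uck2 among them, were placed in the list of further genes and are not counted here. Hprt, which salvages hypoxanthine and guanine, went from 62.4 ± 5.05 RPKM (SD, n = 3) at rest to 105 ± 4.37 with anti-IgM and 98.5 ± 5.14 with LPS in WT cells. Aprt, which salvages adenine, went from 55.6 ± 7.15 to 132 ± 9.55 and 109.9 ± 11.4 RPKM. Hprt and Aprt both rose in all 4 comparisons.

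Dck, the kinase of deoxycytidine and of purine deoxynucleosides, fell the most of the 31 genes (chr5:88765013-88783277). It was at 41.2, 34.9 and 38.2 RPKM in resting WT cells, 12.7, 10.7 and 13.8 RPKM with anti-IgM and 14.5, 11.1 and 17.2 RPKM with LPS. Without Ubqln1, Dck was at 41.9, 39.5 and 39.0 RPKM at rest, 12.6, 12.6 and 12.9 RPKM with anti-IgM and 14.9, 13.2 and 15.9 RPKM with LPS. No stimulated library reached a level near any resting library. Dck was 3.07-fold lower with anti-IgM (−1.62 ± 0.13 SE, edgeR adjusted p = 1.29e-08) and 2.67-fold lower with LPS (−1.42 ± 0.12 SE, edgeR adjusted p = 8.46e-08) in WT cells.

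Tk2, the mitochondrial thymidine kinase, was at 40.2, 38.4 and 41.7 RPKM in resting WT cells, 20.2, 17.5 and 21.5 RPKM with anti-IgM and 18.6, 16.3 and 22.8 RPKM with LPS. Without Ubqln1, Tk2 was at 37.0, 33.7 and 40.0 RPKM at rest, 19.2, 17.8 and 20.6 RPKM with anti-IgM and 17.1, 15.9 and 21.4 RPKM with LPS. Resting libraries were highest in each genotype, and the levels with anti-IgM and LPS overlapped. Tk2 was 2.03-fold lower with anti-IgM in WT cells (edgeR adjusted p = 1.31e-06), and its log2 fold change with LPS was −1.06 ± 0.12 SE.

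Tk1, the cytosolic thymidine kinase of dividing cells, rose with LPS and not with anti-IgM, and is given in full after its values were seen. It was at 9.43, 9.73 and 13.8 RPKM in resting WT cells, 8.60, 10.3 and 13.0 RPKM with anti-IgM and 14.7, 18.5 and 21.5 RPKM with LPS. Without Ubqln1, Tk1 was at 11.7, 11.4 and 12.4 RPKM at rest, 9.75, 12.6 and 13.9 RPKM with anti-IgM and 16.7, 16.6 and 21.9 RPKM with LPS. The LPS libraries were above all others of their genotype, and the anti-IgM and resting libraries overlapped. The log2 fold change with LPS was 0.73 in WT (edgeR adjusted p = 0.00257) and 0.64 in Ubqln1-/- cells (edgeR adjusted p = 0.00694), and with anti-IgM it was −0.05 and 0.03. Tk1 held 21.4% ± 3.10 (SD, n = 3) of the summed RPKM of Tk1 and Tk2 in resting WT cells, 34.9% ± 4.33 with anti-IgM and 48.6% ± 4.58 with LPS.

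The nucleoside diphosphate kinases Nme1 and Nme2, which make triphosphates from diphosphates, both rose in all 4 comparisons. Nme1 was at 41.1, 59.9 and 52.0 RPKM in resting WT cells, 155, 164 and 157 RPKM with anti-IgM and 138, 149 and 109.7 RPKM with LPS. Without Ubqln1, Nme1 was at 46.0, 51.4 and 50.6 RPKM at rest, 155, 154 and 156 RPKM with anti-IgM and 129, 143 and 117 RPKM with LPS. Anti-IgM libraries were above LPS libraries, and those above resting ones, in both genotypes. Nme1 was 3.10-fold higher with anti-IgM (1.63 ± 0.12 SE, edgeR adjusted p = 6.97e-09) and 2.59-fold higher with LPS in WT cells. Nme2 went from 56.3 ± 12.0 RPKM (SD, n = 3) to 121 ± 12.0 and 96.9 ± 8.65 RPKM. The genes lie side by side on chr11, and a readthrough gene, Gm20390, shares sequence with both, so that 47.0% of the 50-base words of Nme2 and 11.1% of those of Nme1 occur in other genes and the split of counts between them is uncertain.

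**Figure D3:**
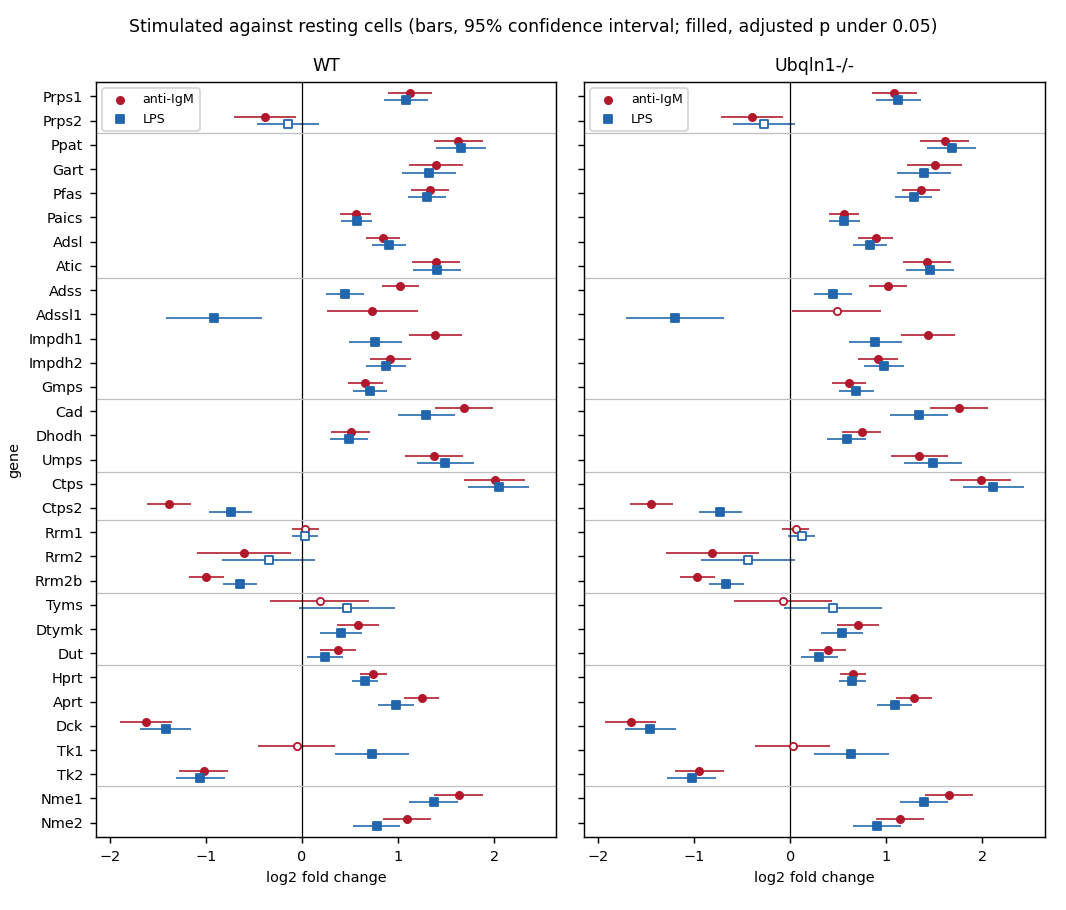
Log2 fold change of each of the 31 genes with anti-IgM (circles) and LPS (squares) against resting cells, in WT (left) and Ubqln1-/- cells (right), with 95% confidence intervals as bars. Filled symbols passed the test, and Ctps at 2.01 and Dck at −1.62 mark the ends of the anti-IgM range in WT cells.

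A further question is where the 2 stimulations differed, at these single doses and at 4 hr. LPS libraries were higher than anti-IgM libraries for 3 members (9.68%) in each genotype, where 17.4% of all tested genes were higher in WT and 16.8% in Ubqln1-/- cells. They were lower for 6 members (19.4%) in WT cells and 4 (12.9%) in Ubqln1-/- cells, against 15.0% and 14.5% of all tested genes. The 3 higher genes were Ctps2, Rrm2b and Tk1, and Adss, Adssl1, Impdh1 and Cad were lower in both genotypes. Aprt and Nme2 were lower in WT cells, by 0.26 and 0.32 on the log2 scale, and their values of −0.20 and −0.24 in Ubqln1-/- cells did not pass the test.

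The largest of these differences was that of Adssl1, −1.65 ± 0.23 SE on the log2 scale in WT (edgeR adjusted p = 2.47e-05) and −1.68 ± 0.24 SE in Ubqln1-/- cells (edgeR adjusted p = 3.2e-05). Adss differed by −0.58 and −0.57, and Impdh1 by −0.62 and −0.55. Both adenylosuccinate synthetases and Impdh1 were lower with LPS, while Impdh2 and Gmps, with values of −0.05 to 0.08, did not pass the test. Ctps2 was higher with LPS by 0.64 (edgeR adjusted p = 0.000171) and 0.72 (edgeR adjusted p = 6.19e-05), and Tk1 by 0.78 (edgeR adjusted p = 0.00312) and 0.61 (edgeR adjusted p = 0.0171). None of the 6 purine ring genes passed this test, and their values lay between −0.11 and 0.07 in both genotypes. Cad, at −0.39 (edgeR adjusted p = 0.0397) and −0.42 (edgeR adjusted p = 0.0294), lost its call in both genotypes without any 1 of anti-IgM replicates 2 and 3 or LPS replicates 1 and 3, at −0.27 to −0.38 in WT and −0.35 to −0.43 in Ubqln1-/- cells. The calls of Aprt and Nme2 were lost without the same WT libraries. With only the groups compared in the fit Aprt (edgeR adjusted p = 0.0529) and Cad (edgeR adjusted p = 0.0982) were not called in WT cells, and without the filter on low counts Nme2 was not (edgeR adjusted p = 0.0541). The same fit of only the groups compared added calls in Ubqln1-/- cells. These were Aprt (edgeR adjusted p = 0.0139), Nme1 (edgeR adjusted p = 0.0132) and Nme2 (edgeR adjusted p = 0.00494), all lower with LPS. In Ubqln1-/- cells Rrm2b lost its call without anti-IgM replicate 3 (0.23) or LPS replicate 1 (0.27), and Tk1 without anti-IgM replicate 1 (0.48) or LPS replicate 3 (0.47). Dck and Nme1 were called in WT cells without LPS replicate 2, at 0.36 and −0.36. With the replicate number as a block, 11 members in place of 7 were called in Ubqln1-/- cells, and the 4 added were Aprt, Nme1, Nme2 and Tyms. In WT cells the block added Prps2 and Nme1.

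**Figure D4:**
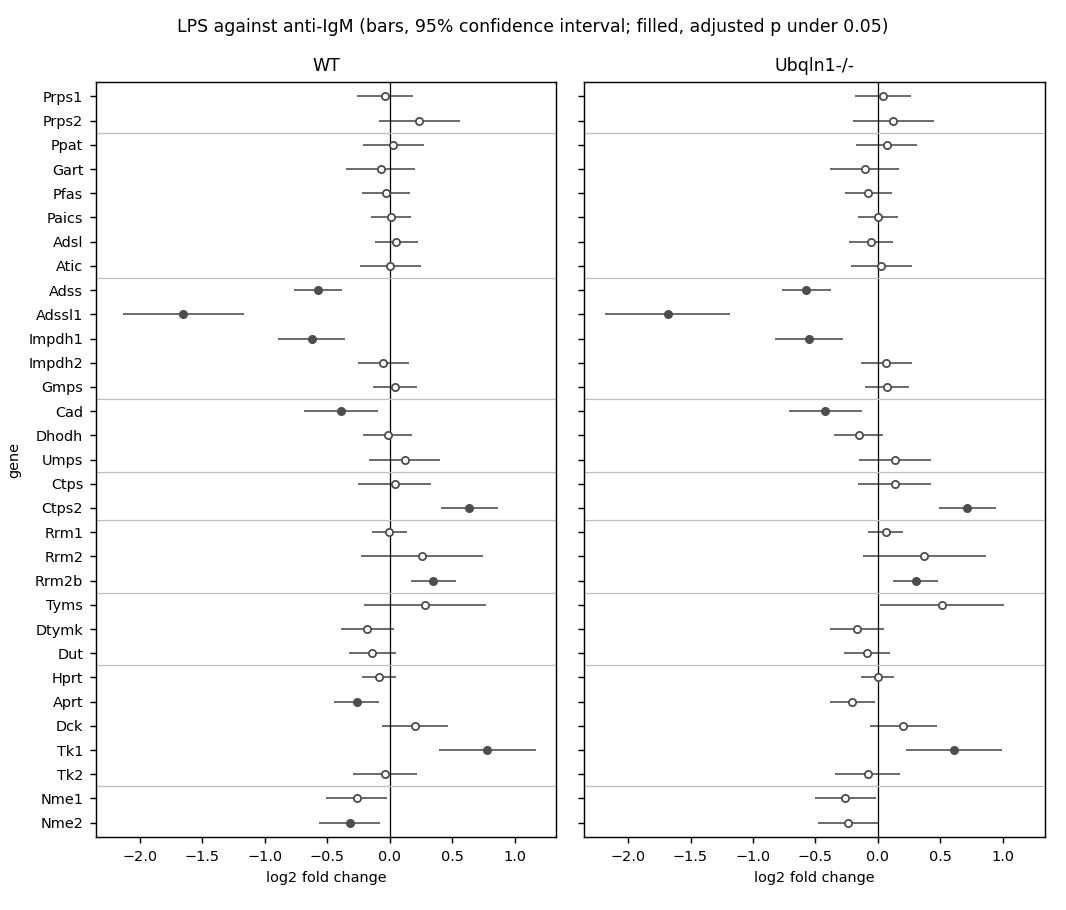
Log2 fold change of each of the 31 genes in cells given LPS against cells given anti-IgM, in WT (left) and Ubqln1-/- cells (right), with 95% confidence intervals as bars and filled symbols for genes that passed the test. Adssl1 stands farthest to the left in both, at −1.65 and −1.68, and the purine ring genes sit on the zero line.

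Loss of Ubqln1 did not move any of the 31 genes past the test. In resting cells 0 members were called between genotypes, beside 0.0565% of all tested genes, with anti-IgM 0 beside 0.0989% and with LPS 0 beside 0.0424%. At an unadjusted p under 0.05 edgeR gave 1 member in resting cells, which was Aprt at −0.19, and 0 with anti-IgM and 0 with LPS. The share of all tested genes under that unadjusted threshold is not given here, so these counts have no background beside them. limma with voom and DESeq2 called 0 members in each of the 3 conditions. The log2 fold changes lay between −0.22 and 0.33 in resting cells, −0.20 and 0.18 with anti-IgM and −0.09 and 0.09 with LPS. Their 95% intervals together ran from −0.49 to 0.81, from −0.70 to 0.58 and from −0.49 to 0.57, and the widest belonged to Adssl1, Tyms, Tk1 and Rrm2. For Ctps with anti-IgM the interval was −0.37 to 0.23. The samples of the 2 genotypes overlapped for all 31 members at rest and with LPS, and for 30 with anti-IgM, where Prps2 was higher in all Ubqln1-/- samples at a log2 fold change of 0.13. With 3 against 3 samples even full separation cannot give an exact permutation p under 0.1. The share of all tested genes whose samples did not overlap was not computed.

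The summed plasma cell markers did not overlap between genotypes in any condition. At rest the sum was 103 to 206 RPKM in WT and 75.4 to 88.4 RPKM in Ubqln1-/- cells. It was 91.3 to 183 and 64.4 to 79.9 RPKM with anti-IgM, and 63.3 to 148 and 41.1 to 55.0 RPKM with LPS. Most of the highest sum, 206 RPKM in a resting WT library, came from a single marker at 186 RPKM. Log2 fold changes of the 3 markers lay between −0.91 and −0.34 at rest, −0.93 and −0.02 with anti-IgM and −0.98 and −0.17 with LPS. None of the 3 markers was called between genotypes, with smallest edgeR adjusted p of 0.862 at rest, 0.238 with anti-IgM and 0.981 with LPS. Their part in the comparison of the 31 genes was not tested.

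The responses to anti-IgM and to LPS were compared between genotypes by an interaction term. For neither stimulation was a member called, and edgeR called 0.0% of all tested genes for anti-IgM and 0.0% for LPS. At an unadjusted p under 0.05 there were 0 members for either, again without the share of all tested genes. Both limma with voom and DESeq2 called 0 members as well. The differences of the members' log2 fold changes lay between −0.26 and 0.24 for anti-IgM and −0.28 and 0.14 for LPS. That of Ctps was −0.03 with a 95% interval of −0.46 to 0.41 for anti-IgM.

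**Figure D5:**
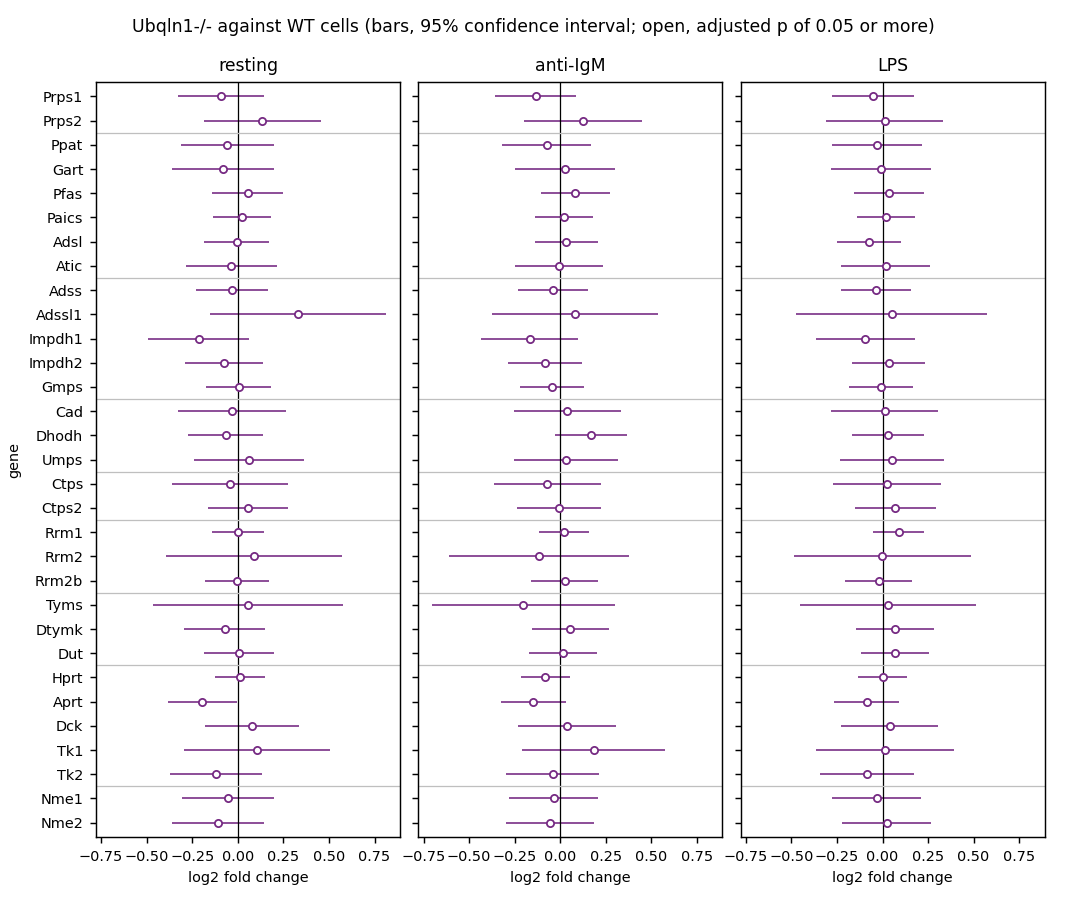
Log2 fold change of each of the 31 genes in Ubqln1-/- against WT cells at rest, with anti-IgM and with LPS, with 95% confidence intervals as bars. All symbols are open because none of the 31 passed the test, and Adssl1 in resting cells has the largest value, 0.33.

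Replicates carried some shared deviation, which the reported fits, having no block, leave in the spread between samples. WT resting replicate 1 was the lowest of its group for 21 of the 31 genes, and Ubqln1-/- LPS replicate 2 was the highest of its group for 24. The coefficient of variation over the 3 libraries of a group ranged from 0.564% to 36.0% over members and groups, with a median of 8.42%. The counts behind a member's value in a library ran from 36 to 20357 with a median of 1709.5, and the smallest belonged to Tyms.

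Genes of neighbouring steps are given for comparison. Of 44 further genes of nucleotide metabolism 43 were in the files and 36 were tested, of which 11 rose and 14 fell with anti-IgM in WT cells, 14 and 14 in Ubqln1-/- cells, 13 and 12 with LPS in WT cells and 13 and 10 in Ubqln1-/- cells. These counts stand beside the 32.4% and 32.2%, 32.9% and 32.4%, 31.2% and 30.1%, and 30.6% and 30.2% of all tested genes that rose and fell in the same comparisons, and the list is not set apart from them here. Its median log2 fold changes were −0.13, −0.13, −0.08 and −0.15. The genes with the largest rises in WT cells included Dctd, the deaminase that supplies dUMP, at 2.24 with anti-IgM (edgeR adjusted p = 7.68e-07) and 2.41 with LPS, and Uck2, a uridine and cytidine kinase, at 1.57 and 1.46. Ampd2, an AMP deaminase, was at 1.31 and 1.15, while Ampd3, another, was at −2.30 and −1.24. Samhd1, a dNTP hydrolase, was at −1.74 and −1.18 and Xdh, which oxidises hypoxanthine and xanthine, at −1.34 and −0.74. Tymp, which cleaves thymidine, rose with both stimulations, by 0.89 and 0.59. Gmpr, which turns GMP back to IMP, was called lower with LPS at −1.75, but on no more than 16 counts in any resting WT library and 1 to 11 in those with LPS.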

How the data were processed

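Splenic B cells were cultured in triplicate wells that were pooled before RNA purification, and 1 library was made for each of 18 pools. The authors mapped single-end 50 base reads of an unstranded kit to GRCm38 with GSNAP and deposited the read count over the exons of each of 28096 Entrez genes, without normalization. They also deposited RPKM and the gene width. The submitters' notes name limma and R 3.2.2, and the counting program and its treatment of strand are not given in the sources used here. Groups came from the labels. Replicate 1 carries no number of its own in the labels and was numbered by elimination.

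From the counts, edgeR 4.0.16 (R 4.3.3) was run with TMM factors (0.958 to 1.04), its filter on low counts (14161 genes kept) and its quasi-likelihood test on all 18 samples, with 1 term for each of 6 groups as in the single-term models of the study. P-values were adjusted over all tested genes by the method of Benjamini and Hochberg. The SE is the log2 fold change divided by the square root of F. The p-values measure the spread between these samples. The biological coefficient of variation was 10.1%. RPKM was recomputed from the deposited count and width with the TMM-scaled library size. The deposited RPKM served only to work out the library total it implies. In WT resting replicate 1 that total was 18348317, against 15368941 summed counts. The levels given here are therefore not on the scale of the deposited RPKM. Scripts were tested on simulated data. The alternatives were limma 3.58.1 with voom, DESeq2 1.42.0, RLE factors, no filter on low counts, only the groups compared, the replicate number as a block and each library left out in turn. Python 3.11.15 with numpy 2.4.6, pandas 2.3.3, scipy 1.17.1 and matplotlib 3.10.9 did the rest.

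Symbols and positions came from RefSeq (GRCm38.p6), which named 25035 genes (89.1%). Promoter windows came from the same build, and shared sequence was counted as 50-base words of GENCODE transcripts. Protein sequences were not used here.

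The members and lists were chosen with earlier results of these data known. Values in every sample are given for the member with the largest change of its role after anti-IgM in WT cells, those past the study's thresholds, those called between LPS and anti-IgM in both genotypes with a log2 difference over 1, any called between genotypes, and those that fell after both stimulations in both genotypes.

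Samples with the same replicate number deviated together. Over 45 pairs the mean correlation of their deviations from the group means was 0.266, and it was over 0.1 in 43, the others being WT resting replicate 2 with Ubqln1-/- resting replicate 2 and with Ubqln1-/- anti-IgM replicate 2. In the comparisons of stimulations within a genotype every pair was over 0.1. The reported fits have no block, as in the single-term limma models of the study. For its RNASeq figures, however, the study names paired t tests, and it describes independent experiments for Myc and Ccnd2. The fit with the block is an alternative, and the calls it changes are given.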

Additional observations from a re-analysis of the deposited data

How the results depend on the processing

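Of 144 counts of members called under the alternatives, 143 were within 1.5 times of the reported count. The exception was LPS against anti-IgM in Ubqln1-/- cells with the replicate block, where 11 members were called in place of 7. The block moved no other count by more than that, and the single calls it changed are given with the results. The 143 include the comparisons of genotypes and of responses, where the reported count was 0 and every alternative gave 0. A factor of 1.5 is also wide for small counts. For LPS against anti-IgM in WT cells, leaving out 1 library gave 6 to 11 members in place of 9, and these counted as close. Of 864 log2 fold changes of the 12 members that the naming rule chose, which leaves out Tk1, 830 kept their direction and call. Without the filter on low counts the median of the members' log2 fold changes was 0.6747 for LPS in Ubqln1-/- cells and 0.03865 for the difference of the anti-IgM responses.

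Leaving out 1 library at a time moved these medians to between 0.7691 and 0.8351 for anti-IgM in WT cells, 0.6329 and 0.6901 for LPS in Ubqln1-/- cells, −0.1085 and 0.02067 for genotype at rest, −0.05583 and 0.06391 for genotype with LPS, and −0.03923 and 0.0938 for the difference of anti-IgM responses. Differences between LPS and anti-IgM near 0, none of them called, changed sign. They ran from −0.1264 to 0.02113 (Prps1), −0.08395 to 0.1469 (Ppat), −0.09341 to 0.1589 (Ctps) and −0.1746 to 0.06917 (Tk2) in WT cells, and from −0.0284 to 0.07622 (Prps1), −0.01847 to 0.1521 (Ppat) and −0.2151 to 0.007427 (Tk2) in Ubqln1-/- cells. The cause was not tested. Counts of 36 to 198 limit what can be said of Tyms, as do the 3 libraries of each group for all genes.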

Other observations

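Further genes of nucleotide metabolism, outside the 31 described, differed between the stimulations. Cmpk2, a mitochondrial UMP and CMP kinase known as an interferon-stimulated gene, was at −2.14 ± 0.37 SE on the log2 scale with anti-IgM against resting WT cells (edgeR adjusted p = 8.23e-05) and at 1.11 ± 0.31 SE with LPS (edgeR adjusted p = 0.00521). Its LPS value in Ubqln1-/- cells was −0.16 ± 0.32 SE, and the difference of the LPS responses between genotypes, −1.27 with a 95% interval of −2.21 to −0.33, did not pass the test after correction over all genes. Between LPS and anti-IgM it was higher with LPS by 3.25 in WT and by 2.05 in Ubqln1-/- cells. Ampd3, an AMP deaminase, was higher with LPS than with anti-IgM by 1.07 in WT and 1.10 in Ubqln1-/- cells.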
